A study of Mus musculus with 8 samples.

Results

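The genes described here receive, carry and break down retinoic acid: the retinoic acid receptors Rara, Rarb and Rarg, the enzymes Cyp26a1, Cyp26b1 and Dhrs3, and the cellular binding proteins Crabp1 and Crabp2. They were chosen by name as a gene family, with the differences between treated and untreated cells already known, among which that of Rarb was one of the highest. Of 9 genes named, 8 were analysed out of 50578 genes counted, and Stra6 was not analysed here. Because the family was noticed in the comparisons with untreated cells, its values in those comparisons are given as a description, with no p-value, and nothing is read from how many of its genes passed the threshold used for other genes.

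Mouse embryonic fibroblasts (MEFs) are cells grown out from the body of an embryo, a mixed connective tissue culture that is a common starting point for reprogramming. Wild-type MEFs from C57BL/6J embryos, at passage 3 to 5, were plated and, 2 h later, given 1 compound at 10 µM, with fresh medium every 3 days. The compounds were carbidopa, an inhibitor of aromatic amino acid decarboxylase, LY-364947, an inhibitor of the transforming growth factor beta type I receptor, and CHIR-99021, an inhibitor of glycogen synthase kinase 3 that activates Wnt signalling. The sample labels spell the second compound LY-364747, and they name the treated cells hepatic-like. Untreated MEFs are labelled only as the control, no vehicle is named, and how long the cells sequenced had been treated is not given in the sources used here. Each of the 4 groups had 2 libraries, and all 3 comparisons with MEFs use the same 2 MEF libraries. The study asked whether single molecules, ranked by computation, move fibroblasts toward a liver progenitor state.

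Retinol taken up by a cell is oxidised to retinal and then to retinoic acid, which enters the nucleus and binds receptors (RARs) that sit on DNA as pairs with RXR proteins. A pathway that is active switches on genes of its own, and the receptor gene Rarb is a classical target of the receptors. Its brakes are classical targets too: the Cyp26 enzymes that oxidise retinoic acid, and Dhrs3, which turns retinal back into retinol. In mesenchyme the pathway is known for patterning the body axis through Hox genes, and the liver holds large stores of retinol.

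The promoters of a pair of the genes are shown first, because they hold the type of repeat that RAR and RXR pairs are known to bind. The windows were those of RefSeq on build GRCm38.p6, 250 bases before to 50 bases after each transcript start, and both strands were searched for direct repeats of a hexamer, AGGTCA in its consensus form, also accepted as AGTTCA, and either of these with a leading G (GGGTCA and, with both changes, GGTTCA), spaced by 1 (DR1), 2 (DR2) or 5 bases (DR5). Windows were found for 7 of the 8 genes, all but Crabp2. In the stretches below, printed 5′ to 3′ along the gene's strand, capitals mark the hexamers of the DR5, which in Cyp26a1 lies in the reverse orientation.
Rarb, chr14:16575493-16575549, minus strand: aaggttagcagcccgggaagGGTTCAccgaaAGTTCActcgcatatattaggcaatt
Cyp26a1, chr19:37697756-37697807, plus strand: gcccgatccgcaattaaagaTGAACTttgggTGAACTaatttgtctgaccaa

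The Rarb repeat spans positions -53 to -37 from the start, and that of Cyp26a1 spans -32 to -16. A DR5 of these letters was present in 32 of 32851 windows (0.0974%), a DR1 in 73 (0.222%) and a DR2 in 88 (0.268%). No DR1, DR2 or DR5 of these letters was found in the 4 windows of Rara, the 2 of Rarg, the 1 of Cyp26b1, the 3 of Dhrs3 or the 1 of Crabp1. These matches describe the letters within the windows and say nothing of whether a receptor was bound in these cells.

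Library totals ran from 15039566 to 20504338 reads on genes, and 15154 genes passed the filter on low counts, all 8 members among them. The carbidopa pair was the least alike, with a chi-square per degree of freedom of 36.4 between its libraries against 4.35 to 9.38 in the other pairs. Fibroblast markers had reads in every library, 12 of 12, with a summed level of 30853 and 31706 CPM in MEFs and 8804 to 12159 CPM in treated cells, where CPM is the read count scaled to a library of fixed size. Of the hepatocyte markers 12 of 13 were in the table and 6 to 8 of them were at 0 in each library. Serpina1a, Tat and Ahsg were at 0 in all 8 libraries. Their summed level was 5.85 and 6.58 CPM in MEFs and 4.58 to 15.6 CPM in treated cells. In bulk RNA, fewer cells of a type and less RNA per cell cannot be told apart.

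Among the receptors, Rarb went from near silence in MEFs to the most abundant of the 3 in treated cells, while Rarg, the leading receptor of MEFs, was lower after carbidopa and CHIR-99021, and Rara was higher after CHIR-99021. Levels are CPM scaled between libraries by the TMM method, and each difference is a log2 fold change fitted by edgeR. Its standard error (SE) was derived from that change and the F statistic of the edgeR test, not taken from the fit. Rarb (retinoic acid receptor beta, ENSMUSG00000017491, chr14:16430839-16819156, minus strand of mm10) had 12 and 14 reads in the MEF libraries, a level of 0.892 and 0.903 CPM. It stood at 425 and 391 CPM with carbidopa, 405 and 396 CPM with LY-364947 and 328 and 353 CPM with CHIR-99021. Every treated library lay far above both MEF libraries, and the CHIR-99021 pair lay below the other treated pairs. The difference from MEFs was 8.82 (SE 0.16) for carbidopa, 8.79 (SE 0.16) for LY-364947 and 8.55 (SE 0.16) for CHIR-99021, or 451-, 443- and 376-fold. These placed Rarb at rank 4, 4 and 3 from the top of the 15154 genes. Pooled over the MEF pair, Rarb had 26 reads, with an exact Poisson interval of 17.0 to 38.1 for counting error only. The fold changes of Rarb rest on this small count, so the SE is not read as their full error.

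Rarb overlaps other genes, and whether the counting used strand is not given in the sources used here. In the GENCODE M21 annotation, 1793 of its exon bases (34.06%) are shared with Top2b (DNA topoisomerase II beta) on the opposite strand, and 227 (4.31%) with the antisense gene Gm48162. Top2b had 3559 and 4156 reads in the MEF libraries, where Rarb had 12 and 14, and 3497 to 5331 reads in treated libraries. Its log2 fold change was -0.15 for carbidopa (SE 0.10, edgeR adjusted p = 0.242), -0.13 for LY-364947 (SE 0.10, adjusted p = 0.346) and -0.38 for CHIR-99021 (SE 0.10, adjusted p = 0.00966). The other 7 members share no exon bases with another gene.

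Rarg (receptor gamma, ENSMUSG00000001288, chr15:102234938-102257517, minus strand) was measured at 130 and 118 CPM in MEFs, 62.4 and 69.2 CPM with carbidopa, 124 and 83.5 CPM with LY-364947 and 82.1 and 59.1 CPM with CHIR-99021. Both carbidopa and both CHIR-99021 libraries lay below MEFs, while the LY-364947 pair was wide and reached into the MEF range. Its log2 differences from MEFs were -0.91, -0.25 and -0.81 in that order, each with an SE of 0.19. Without CHIR-99021 replicate 2 the difference for CHIR-99021 was -0.59, and without LY-364947 replicate 2 that for LY-364947 was 0.0018.

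Rara (receptor alpha, ENSMUSG00000037992, chr11:98927818-98974942, plus strand) stood at 27.0 and 26.0 CPM in MEFs, 22.3 and 18.6 CPM with carbidopa and 18.4 and 18.8 CPM with LY-364947. With CHIR-99021 it stood at 56.0 and 46.7 CPM, above all 6 other libraries. The log2 difference from MEFs was -0.37 (SE 0.13) for carbidopa, -0.51 (SE 0.14) for LY-364947 and 0.96 (SE 0.13) for CHIR-99021. The carbidopa and LY-364947 ranges of Rara overlapped each other.

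**Figure D1:**
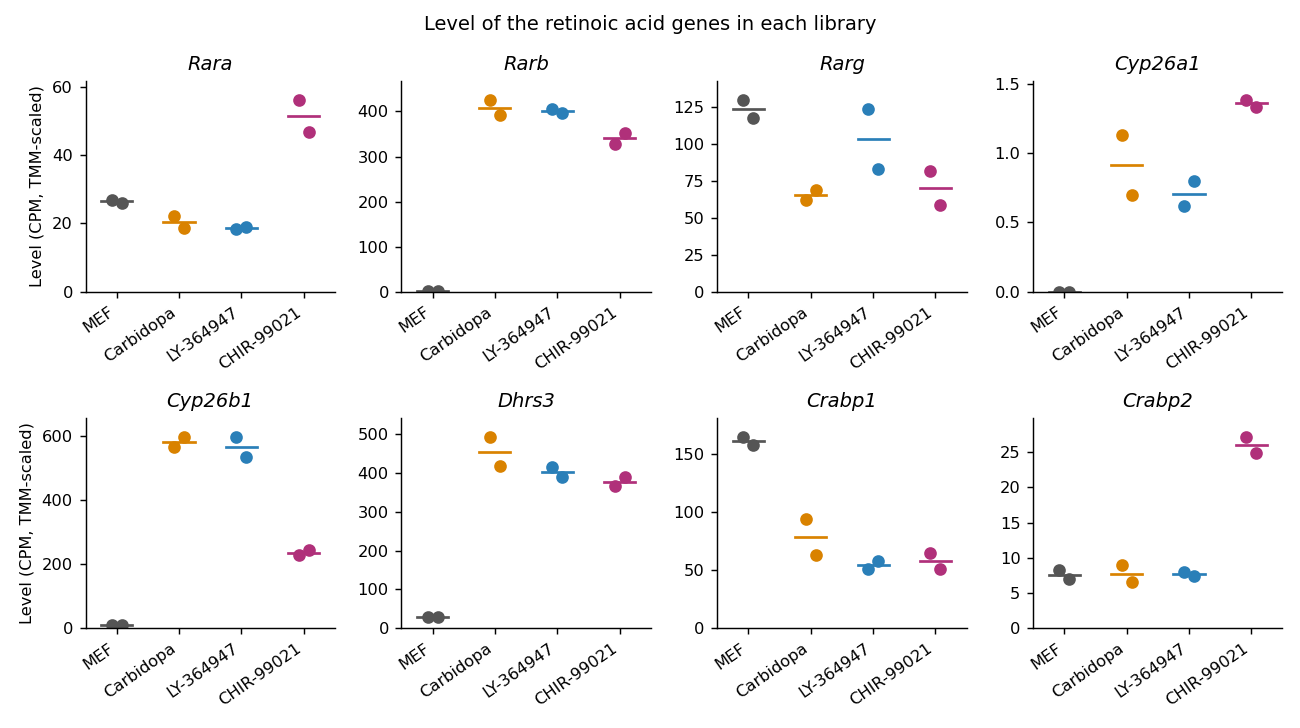
Level of each of the 8 genes in each library (vertical axis, CPM scaled by TMM, each panel on its own linear scale from 0), with 2 points per group for its libraries and a line at their mean. Rarb, Cyp26b1 and Dhrs3 are far above the MEF level in all 6 treated libraries, whereas Rara and Crabp2 stand apart from the other groups with CHIR-99021.

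Set per kilobase of exons, so that genes of different length can be compared, the receptor family of MEFs was mostly Rarg and that of treated cells mostly Rarb. In the MEF libraries Rarg made up 82.8% and 81.8% of the summed receptor level, Rara 16.8% and 17.7%, and Rarb 0.460% and 0.507%. Rarb made up 80.3% and 78.4% in the carbidopa libraries, 69.8% and 75.9% in those of LY-364947, and 66.0% and 73.2% in those of CHIR-99021. Rara held 13.6% and 11.7% of the family with CHIR-99021, against 3.83% to 5.08% in the other 4 treated libraries. The summed receptor level was 36.8 and 33.8 CPM per kb in MEFs and 91.6 to 110 CPM per kb in treated libraries. These values divide Rarb by all its exon bases, of which 34.06% are shared with Top2b. How reads on the shared bases were counted is not given in the sources used here, which limits the comparison with Rara and Rarg.

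**Figure D2:**
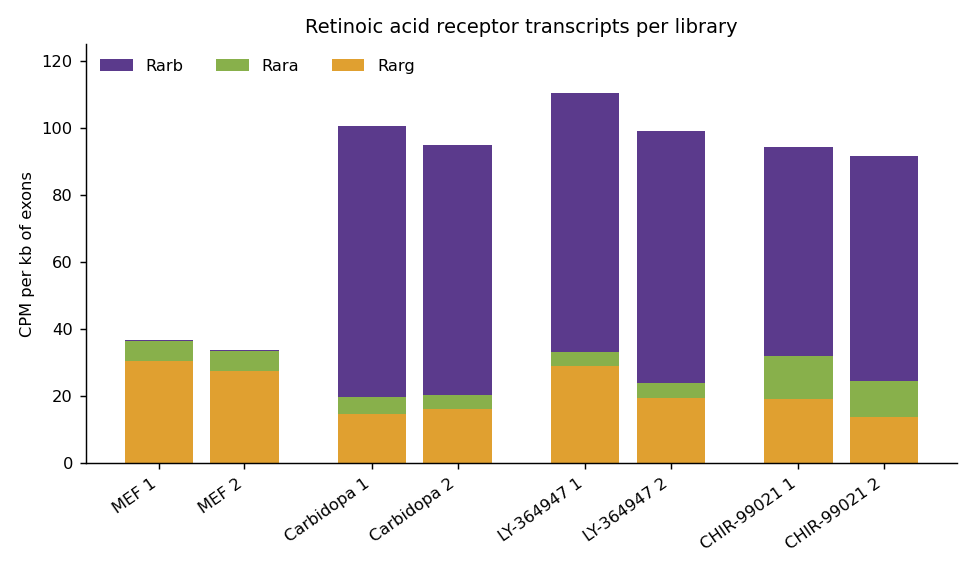
Stacked bars of the level of Rarg, Rara and Rarb in CPM per kb of exons (vertical axis, from 0) for each of the 8 libraries. The Rarb segment is barely visible in the MEF libraries and is the tallest in each treated library, with a summed height of 91.6 to 110 against 36.8 and 33.8 in MEFs.

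The enzymes that limit retinoic acid were all higher in treated cells. Cyp26b1 (ENSMUSG00000063415, chr6:84571414-84593908, minus strand), a cytochrome P450 that oxidises retinoic acid to inactive forms, was at 11.7 and 11.0 CPM in MEFs. It was at 567 and 596 CPM with carbidopa, 598 and 535 CPM with LY-364947 and 230 and 243 CPM with CHIR-99021. All treated libraries were far above MEFs, and the CHIR-99021 pair was below the other 4. The log2 difference from MEFs was 5.68 (SE 0.13), 5.65 (SE 0.13) and 4.39 (SE 0.12) in that order, or 51.4-, 50.1- and 20.9-fold.

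Cyp26a1 (ENSMUSG00000024987, chr19:37697798-37701536, plus strand), the related enzyme with the promoter repeat shown above, had 0 reads in both MEF libraries. Reads numbered 24 and 15 in the carbidopa libraries, 11 and 15 in those of LY-364947, and 24 and 23 in those of CHIR-99021. A count of 0 allows up to 3 reads per library, against which the treated levels were at least 4.39-fold higher with carbidopa, 3.40-fold with LY-364947 and 6.52-fold with CHIR-99021. Pooled over the pair, 0 reads in MEFs has an exact 95% Poisson limit of 3.69 reads, while the pool was 39 reads for carbidopa (27.7 to 53.3), 26 for LY-364947 (17.0 to 38.1) and 47 for CHIR-99021 (34.5 to 62.5). These intervals cover counting error only. In each treated library Cyp26b1 supplied at least 98.4% of the summed level of both enzymes per kb.

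Dhrs3 (ENSMUSG00000066026, chr4:144892827-144928209, plus strand), a retinal reductase that draws retinal away from retinoic acid synthesis, was at 29.2 and 28.8 CPM in MEFs. Its level was 492 and 417 CPM with carbidopa, 415 and 389 CPM with LY-364947 and 366 and 388 CPM with CHIR-99021. Treated libraries were far above MEFs, and the ranges of the compounds lay close together without overlap. The log2 difference was 3.97, 3.79 and 3.70 in that order (each SE 0.12), or 15.7-, 13.9- and 13.0-fold. Per kb of exons, Dhrs3 had the highest level of the 8 genes in each compound's mean, at 155, 137 and 129 CPM per kb, whereas in MEFs that place belonged to Crabp1 at 201 CPM per kb.

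The binding proteins did not share a direction. Crabp1 (ENSMUSG00000032291, chr9:54764748-54773110, plus strand), a cytoplasmic carrier linked to the breakdown of retinoic acid, stood at 165 and 158 CPM in MEFs. It stood at 94.6 and 62.9 CPM with carbidopa, 51.2 and 58.0 CPM with LY-364947 and 64.9 and 51.0 CPM with CHIR-99021. All 6 treated libraries were below MEFs, and the range of CHIR-99021 overlapped those of LY-364947 and of carbidopa. The log2 difference was -1.04, -1.56 and -1.48 in that order (each SE 0.18), or 2.05-, 2.95- and 2.79-fold lower.

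Crabp2 (ENSMUSG00000004885, chr3:87948666-87953376, plus strand), the carrier that hands retinoic acid to receptors in the nucleus, was at 8.32 and 6.96 CPM in MEFs. It was at 8.94 and 6.62 CPM with carbidopa, 8.02 and 7.39 CPM with LY-364947 and 27.2 and 24.9 CPM with CHIR-99021. The ranges of MEFs, carbidopa and LY-364947 overlapped, and the CHIR-99021 pair was above all others. The log2 difference from MEFs was 0.03 (SE 0.18), 0.02 (SE 0.19) and 1.77 (SE 0.18) in that order, the last being 3.41-fold. Of the summed level of both carriers per kb, Crabp2 made up 2.97% and 2.60% in MEFs and 20.2% and 22.9% with CHIR-99021.

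**Figure D3:**
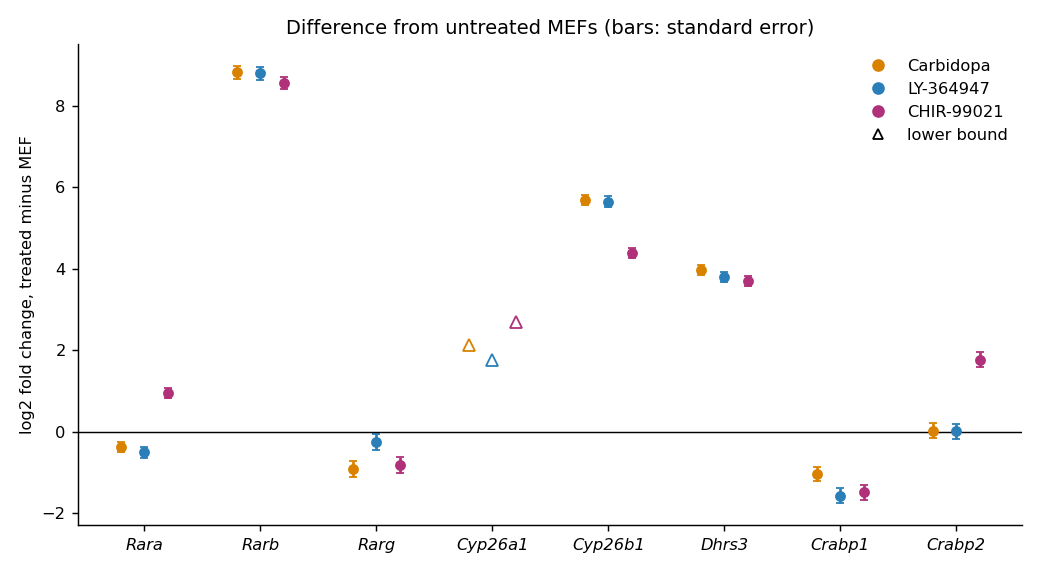
Log2 fold change of each gene from MEFs (vertical axis) for carbidopa, LY-364947 and CHIR-99021, with bars of 1 standard error derived from the edgeR test. Triangles give Cyp26a1 as a lower bound, since it had 0 reads in MEFs. Among the 7 genes with a fitted difference, Rarb, Cyp26b1 and Dhrs3 are the highest for each compound, and for CHIR-99021 Rara and Crabp2 are above 0, apart from the other compounds.

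As a description, by the threshold applied to all genes (an adjusted p under 0.05 in edgeR's quasi-likelihood test), 6 of the 8 members were called against MEFs with carbidopa, 4 higher and 2 lower, where 37.7% of all genes tested were called (18.0% higher and 19.7% lower). With LY-364947 it was 6 members, 4 higher and 2 lower, where 31.0% of genes were called (13.7% higher and 17.2% lower). With CHIR-99021 all 8 were called, 6 higher and 2 lower, where 38.8% of genes were called (18.7% higher and 20.1% lower). The members' median log2 difference, with Cyp26a1 at its bound, was 1.08, 0.89 and 2.24 in that order, beside 0.04, 0.03 and 0.04 over all genes tested. Since the members were chosen in view of these comparisons, and Cyp26a1 passed the filter on low counts through the treated libraries alone, these counts and medians support nothing.

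The compounds were then set against each other at the same dose, in 3 pairs, with p adjusted over all 15154 genes. The differences are between treated libraries, while the filter, the scaling and the estimate of spread come from the fit of all 8 libraries, MEFs included. CHIR-99021 differed from the other compounds at the same 3 members in both pairs, whereas no member was called between LY-364947 and carbidopa. With CHIR-99021 the level of Rara exceeded that of carbidopa by 1.33 on the log2 scale (SE 0.13, adjusted p = 1.63e-04) and that of LY-364947 by 1.46 (SE 0.13, adjusted p = 1.12e-04). Crabp2 exceeded its carbidopa level by 1.74 (SE 0.17, adjusted p = 1.56e-04) and its LY-364947 level by 1.76 (SE 0.17, adjusted p = 1.70e-04). For Cyp26b1 the CHIR-99021 level was 2.46-fold below that of carbidopa, a log2 difference of -1.30 (SE 0.10, adjusted p = 3.78e-05), and 2.39-fold below that of LY-364947, a difference of -1.26 (SE 0.10, adjusted p = 5.31e-05). So CHIR-99021 against carbidopa called 3 of 8 members, 2 higher and 1 lower, where 14.7% of all genes were called (6.62% higher and 8.08% lower). Against LY-364947 it called 3 of 8, 2 higher and 1 lower, where 14.1% were called (6.45% higher and 7.69% lower). These calls held under every alternative setting and without any single library.

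The remaining members were not called between CHIR-99021 and the other compounds, and their 95% intervals bound the difference. Against carbidopa the log2 difference of Rarb was -0.26 (interval -0.47 to -0.05, adjusted p = 0.0944), that of Dhrs3 -0.27 (-0.50 to -0.03, adjusted p = 0.124) and that of Crabp1 -0.44 (-0.85 to -0.04, adjusted p = 0.136). Without carbidopa replicate 2 all 3 were called, at -0.32, -0.38 and -0.70, with adjusted p = 0.00961, 0.00388 and 0.00200, and Crabp1 was also called with all libraries where no filter on low counts was applied (adjusted p = 0.0102). Rarg differed from carbidopa by 0.10 (-0.33 to 0.53, adjusted p = 0.778) and Cyp26a1 by 0.57 (-0.36 to 1.49, adjusted p = 0.402), the latter an interval set by its few reads. Against LY-364947, Rarb differed by -0.24 (-0.45 to -0.03, adjusted p = 0.131, or 0.0393 in a fit of only these groups), Dhrs3 by -0.09 (-0.33 to 0.14, adjusted p = 0.607) and Crabp1 by 0.09 (-0.32 to 0.49, adjusted p = 0.799). Cyp26a1 differed from LY-364947 by 0.93 (-0.04 to 1.90, adjusted p = 0.190). Rarg differed by -0.56 (-0.99 to -0.13, adjusted p = 0.0858), and without LY-364947 replicate 2 the difference was -0.81 (adjusted p = 0.0372). Rarg was also called with all libraries by DESeq2 (adjusted p = 0.0218), with no filter (adjusted p = 7.92e-04) and in a fit of only these groups (adjusted p = 0.0443).

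Between LY-364947 and carbidopa 0 of 8 members were called by edgeR, 2 had an unadjusted p under 0.05 (Rarg and Crabp1), and DESeq2 called 0. The background was 2 of 15154 genes called (0.0132%). The narrowest intervals were those of Rarb, -0.03 (-0.24 to 0.18, adjusted p = 0.913), and Cyp26b1, -0.04 (-0.26 to 0.18, adjusted p = 0.880). Rarg differed by 0.66 (0.23 to 1.09, adjusted p = 0.519) and Crabp1 by -0.53 (-0.93 to -0.12, adjusted p = 0.519). Without carbidopa replicate 2, these were 0.73 (adjusted p = 0.0344) and -0.79 (adjusted p = 0.00218), and Dhrs3 was called as well, at -0.29 (adjusted p = 0.0213). With no filter, Rarg and Crabp1 were called with all libraries (adjusted p = 4.88e-04 and 0.00722). Rara, Crabp2, Dhrs3 and Cyp26a1 differed by -0.13, -0.01, -0.18 and -0.36 with all libraries, with adjusted p = 0.677, 0.980, 0.528 and 0.734.

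**Figure D4:**
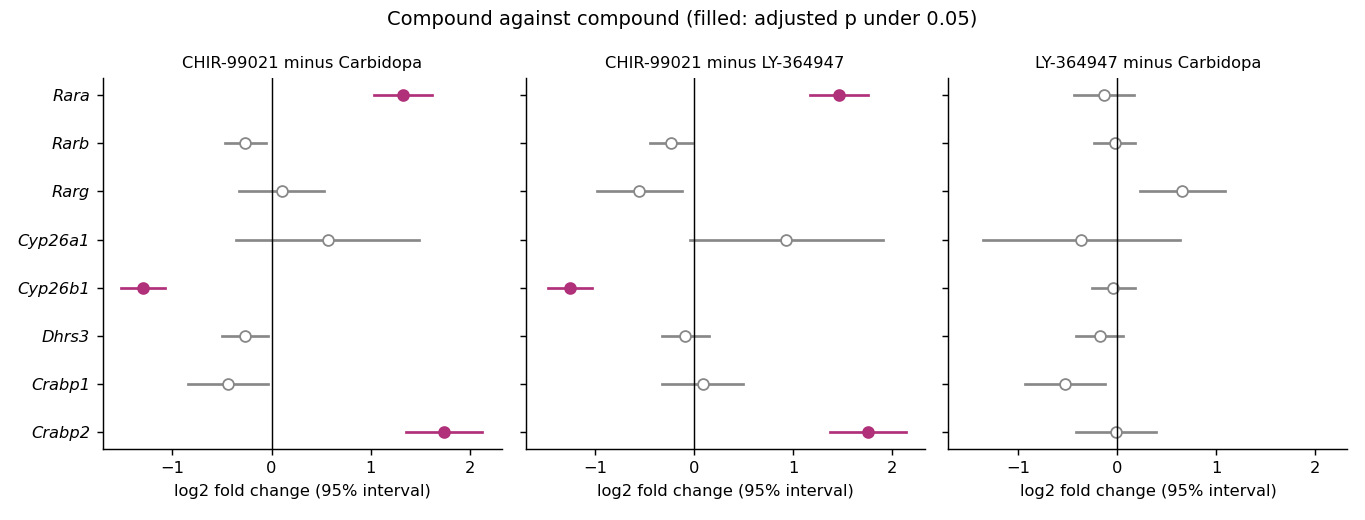
Log2 fold change between compounds for the 8 genes (horizontal axis) in the 3 pairs, with 95% intervals from the edgeR fit. Filled points passed an adjusted p under 0.05: Rara, Crabp2 and Cyp26b1 in both pairs with CHIR-99021, and none between LY-364947 and carbidopa.

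The rest of the retinoid pathway was followed in 3 lists of genes outside the family. These lists too were chosen with earlier results of these data known, and the genes named from them were picked mainly by their p. Their counts and p-values against MEFs are therefore a description and no independent support. Of 24 genes of retinoid supply and synthesis 16 were tested, and those called higher and lower than in MEFs were 5 and 6 for carbidopa, 4 and 6 for LY-364947, and 3 and 6 for CHIR-99021. Over all genes tested these shares were 18.0% and 19.7%, 13.7% and 17.2%, and 18.7% and 20.1%, so that the 3 of 16 called higher with CHIR-99021 stood at the background. Among the 6 called lower with each compound were Aldh1a3, Aldh1a2 and Stra6l, which passed the filter on low counts through the MEF libraries alone. The counts of genes called lower are therefore not read against the background. The median log2 change of the list was -0.18, -0.12 and -0.11 in that order. The retinal dehydrogenase Aldh1a3, which makes retinoic acid, was counted at 36 and 40 reads in MEFs and 1 to 6 reads in each treated library, a level of 2.67 and 2.58 CPM against 0.0575 to 0.319 CPM. It passed the filter on low counts through the MEF libraries, so its fitted change and p are not given.

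Other enzymes of synthesis moved both ways. Dhrs9, a short-chain dehydrogenase that oxidises retinol, fell with log2 changes of -2.72 for carbidopa (SE 0.30, adjusted p = 6.43e-05), -2.14 for LY-364947 (SE 0.29, adjusted p = 2.93e-04) and -2.12 for CHIR-99021 (SE 0.29, adjusted p = 2.93e-04). Adh1, an alcohol dehydrogenase that also oxidises retinol, was at 2.23 and 2.32 CPM in MEFs and 9.78 to 22.0 CPM in treated libraries. It rose by 3.10 (SE 0.20, adjusted p = 1.14e-06), 2.87 (SE 0.20, adjusted p = 2.12e-06) and 2.16 (SE 0.21, adjusted p = 1.96e-05), with a difference of CHIR-99021 from carbidopa of -0.94 (SE 0.16, adjusted p = 0.00386). Adh7, an alcohol dehydrogenase active on retinol, fell with log2 changes of -0.52 (adjusted p = 0.0152), -0.62 (adjusted p = 0.00742) and -1.39 (adjusted p = 4.55e-05). Aldh1a1, a second retinal dehydrogenase, rose by 1.48 with carbidopa (SE 0.22, adjusted p = 5.22e-04) and 1.31 with LY-364947 (SE 0.23, adjusted p = 0.00137), against a difference of 0.23 with CHIR-99021 (SE 0.24, adjusted p = 0.492). The direct difference of CHIR-99021 in Aldh1a1 was -1.25 from carbidopa (SE 0.21, adjusted p = 0.00371) and -1.08 from LY-364947 (SE 0.22, adjusted p = 0.00890).

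Of 18 receptor partners and coregulators 16 were tested, and those called higher and lower were 4 and 5 for carbidopa, 3 and 5 for LY-364947, and 3 and 4 for CHIR-99021, with median log2 changes of -0.29, 0.02 and 0.05. Over all genes tested, 18.0% were higher and 19.7% lower with carbidopa, and 13.7% and 17.2% with LY-364947. With CHIR-99021 the counts of the list lay near the background of 18.7% higher and 20.1% lower. Nrip1, a corepressor recruited by receptors that carry a ligand, rose by 0.74 (SE 0.11, adjusted p = 5.31e-04), 0.94 (SE 0.11, adjusted p = 1.11e-04) and 1.05 (SE 0.11, adjusted p = 4.49e-05) with carbidopa, LY-364947 and CHIR-99021. The coactivator Ncoa3 rose by 0.81, 1.19 and 0.75, with adjusted p = 0.00310, 2.81e-04 and 0.00447. Tbl1xr1, a subunit of corepressor complexes, fell, with log2 changes of -1.02, -0.72 and -1.04 and adjusted p = 1.68e-04, 0.00166 and 1.36e-04. Fabp5, a carrier that takes retinoic acid to the receptor PPAR delta, was at 46.9 and 47.4 CPM in MEFs, 62.1 and 56.3 CPM with carbidopa, 48.4 and 55.6 CPM with LY-364947 and 26.3 and 25.3 CPM with CHIR-99021. The difference of CHIR-99021 in Fabp5 was -1.20 from carbidopa (SE 0.11, adjusted p = 1.19e-04) and -1.01 from LY-364947 (SE 0.11, adjusted p = 3.26e-04), opposite in sign to that of Crabp2. For the coactivator Crebbp, CHIR-99021 exceeded carbidopa by 0.59 (SE 0.17, adjusted p = 0.0471).

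Of 28 genes known as retinoic acid targets 22 were tested, and those called higher and lower were 13 and 4 for carbidopa, 13 and 2 for LY-364947, and 14 and 1 for CHIR-99021, with median log2 changes of 0.79, 0.78 and 0.87. Over all genes tested, 18.0% were called higher and 19.7% lower for carbidopa, 13.7% and 17.2% for LY-364947, and 18.7% and 20.1% for CHIR-99021. As the list was chosen with earlier results known, its counts are a description. They include Rarres2, called higher with each compound. Tgm2 (tissue transglutaminase) was at 19.8 and 17.6 CPM in MEFs, 79.6 and 76.7 CPM with carbidopa, 86.9 and 86.7 CPM with LY-364947 and 159 and 145 CPM with CHIR-99021. The rise of Tgm2 was 2.07 (SE 0.11, adjusted p = 2.98e-07), 2.22 (SE 0.11, adjusted p = 1.94e-07) and 3.02 (SE 0.11, adjusted p = 2.89e-08), and CHIR-99021 exceeded carbidopa by 0.96 (SE 0.10, adjusted p = 2.29e-04) and LY-364947 by 0.80 (SE 0.10, adjusted p = 6.73e-04). Meis2, a homeobox partner of Hox proteins, rose by 1.76, 1.75 and 1.81 (each SE 0.09), with adjusted p = 3.09e-07, 3.36e-07 and 2.46e-07. Hoxa3, a patterning gene of the anterior Hoxa cluster, rose by 1.53, 1.72 and 2.37 (SE 0.20, 0.20 and 0.19), with adjusted p = 1.94e-04, 8.60e-05 and 6.93e-06. Rarres2, which encodes the secreted protein chemerin, was at 0.223 and 0.322 CPM in MEFs, from 3 and 5 reads. It was at 11.1 and 8.25 CPM with carbidopa, 7.79 and 10.1 CPM with LY-364947 and 1.84 and 2.61 CPM with CHIR-99021. It passed the filter on low counts through the treated libraries, so its fitted change and p against MEFs are not given. Like Cyp26b1 it was lower with CHIR-99021, with differences of -2.12 from carbidopa (SE 0.25, adjusted p = 5.04e-04) and -2.0 from LY-364947 (SE 0.26, adjusted p = 7.85e-04). Bhlhe40, a basic helix-loop-helix repressor, went the other way: it fell with log2 changes of -0.96 for carbidopa (SE 0.10, adjusted p = 3.48e-05) and -1.11 for LY-364947 (SE 0.10, adjusted p = 1.32e-05), against -0.08 with CHIR-99021 (SE 0.10, adjusted p = 0.558).

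**Figure D5:**
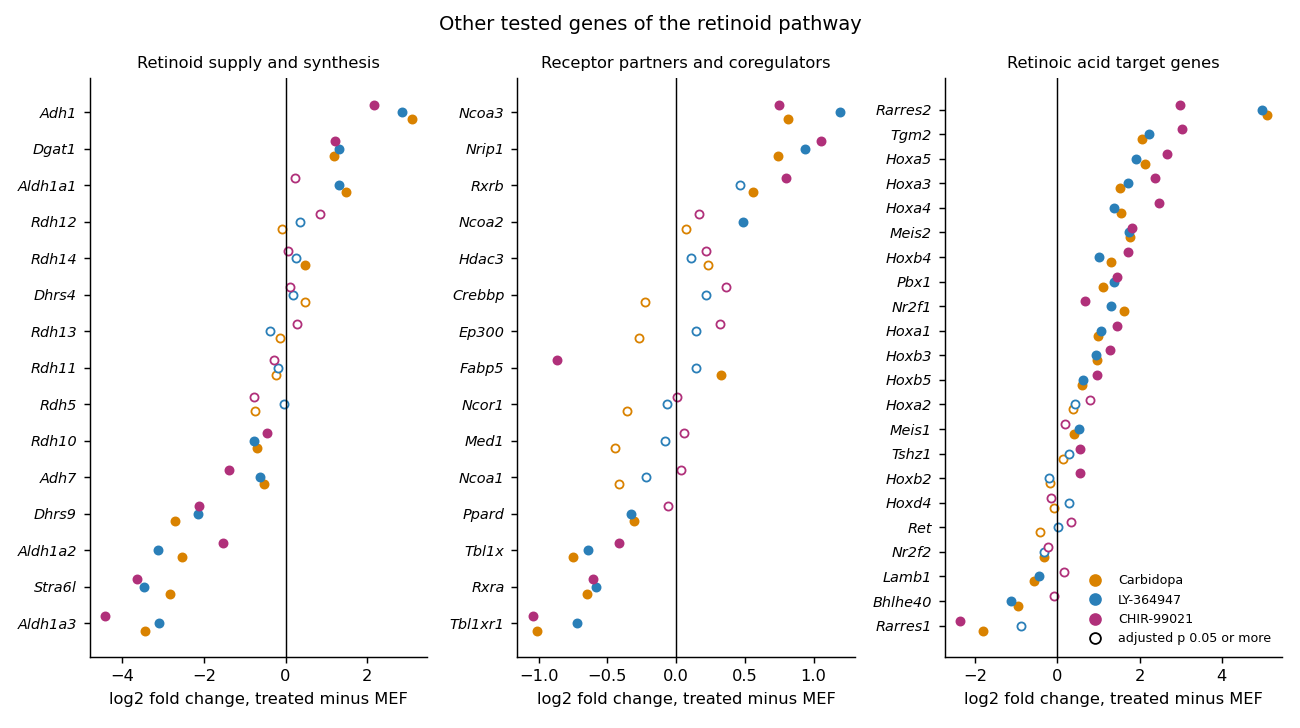
Log2 fold change from MEFs (horizontal axis) of 52 of the 54 tested genes of the 3 retinoid lists, by compound, with filled points for an adjusted p under 0.05 and open points otherwise. In each panel genes are ordered by their mean over the compounds. More target genes have filled points to the right of 0 than to the left, and genes of supply and synthesis lie on both sides. Points of Aldh1a3, Aldh1a2, Stra6l and Rarres2 are drawn from the fit. The first 3 of these passed the filter on low counts through MEFs alone and Rarres2 through treated libraries alone, so their points are not read.

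Over the 3 lists together, 37, 33 and 31 of the 54 genes were called against MEFs in the order above, where 37.7%, 31.0% and 38.8% of all genes were. Among those called were Aldh1a3, Aldh1a2 and Stra6l, which passed the filter through MEFs alone, and Rarres2, which passed it through treated libraries alone. Between compounds, CHIR-99021 differed from carbidopa at 14 and from LY-364947 at 16, where 14.7% and 14.1% of all genes were called. LY-364947 differed from carbidopa at 0 by edgeR and by DESeq2, with 7 at an unadjusted p under 0.05. Without carbidopa replicate 2 the calls were 28 between CHIR-99021 and carbidopa and 16 between LY-364947 and carbidopa.

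The genes whose profile over the 8 libraries was most like that of each member were sought among 4146 genes whose group means spanned at least 1 on the log2 scale, by Pearson correlation of log2 CPM. Most of the span lies between MEFs and the 6 treated libraries, so the coefficients are a description. For Rarb they were Glul (glutamine synthetase, 0.9997) and Fam107b (0.999), and for Dhrs3 Fibin (0.999) and again Glul (0.998). Cyp26b1 was followed by Irf4 (0.999) and the semaphorin Sema3e (0.998), whose mean level was 60.8 CPM in MEFs, 642 and 690 CPM with carbidopa and LY-364947, and 390 CPM with CHIR-99021. Irf4 was near 0 in MEFs, at a mean of 0.069 CPM, and passed the filter through treated libraries. Its mean there was 6.13, 6.69 and 3.15 CPM with carbidopa, LY-364947 and CHIR-99021. For Cyp26a1 they were Tinagl1 (0.997) and Hoxa5 (0.996), the latter one of the target genes listed. Rara was followed by Lmod1 (0.994) and Irak2 (0.992), and Crabp2 by Kcnn4 (0.972) and again Irak2 (0.971), a kinase of interleukin 1 receptor signalling at 22.0 CPM in MEFs, 18.4 and 17.1 CPM with carbidopa and LY-364947, and 47.2 CPM with CHIR-99021. Crabp1 was followed by Klhl30 (0.991) and Mapk12 (0.991), and Rarg by RP23-11B13.1 (0.979) and B3galt2 (0.964), of which Klhl30, RP23-11B13.1 and B3galt2 were low in every group.

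Markers of other cell types moved along with the comparisons above. Their summed levels are CPM on library totals, without the TMM scaling used for the levels of single genes and for the calls. Of the macrophage markers 15 of 15 were in the table, their summed level was 1040 and 1062 CPM in MEFs, 377 and 410 CPM with carbidopa, 279 and 289 CPM with LY-364947 and 90.6 and 98.5 CPM with CHIR-99021, and 13, 13 and 14 of 14 tested were called lower. The fibroblast list was called lower at 9 of 12 genes and higher at 1 with each compound. Over all genes tested, 19.7%, 17.2% and 20.1% were called lower with carbidopa, LY-364947 and CHIR-99021. The sum of the adipocyte list fell from 333 and 351 CPM in MEFs to 55.8 to 100 CPM, with Plin1, Cidec and Lep at 0 in all libraries. That of the neural list fell from 57.2 and 63.7 CPM to 9.46 to 12.8 CPM, and that of the skeletal muscle list from 41.4 and 45.0 CPM to 6.98 to 17.8 CPM. Not all tested genes of these lists were called lower. In the order above, the calls were 2, 2 and 1 of 4 adipocyte genes and 2, 2 and 3 of 5 neural genes. Both of the 2 tested skeletal muscle genes were called lower with each compound. Endothelial markers stood at 20.4 and 22.6 CPM in MEFs and 12.1 to 16.7 CPM in treated cells, with Cldn5 at 0 in all libraries. The epithelial list stood at 3.01 and 3.92 CPM in MEFs and 10.1 to 24.7 CPM in treated cells. Proliferation markers stood at 233 and 237 CPM in MEFs, 243 to 266 CPM with carbidopa and LY-364947 and 147 and 162 CPM with CHIR-99021. With TMM scaling, those called higher and lower of 8 were 1 and 3 for carbidopa, 1 and 1 for LY-364947, and 1 and 6 for CHIR-99021. The sums for carbidopa and LY-364947 are thus not read as a rise. CHIR-99021 was the group in which Rara and Crabp2 were highest and Cyp26b1 was lower than with the other compounds. The part of these markers in the differences of the retinoic acid genes was not tested.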

How the data were processed

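The authors prepared RNA-seq libraries from MEFs and treated cells, demultiplexed them with bcl2fastq, mapped reads to mm10 with STAR 2.4.2a and counted reads per gene with featureCounts, and the deposited values are these whole-number counts, not normalized. The labels name a SMARTER library kit and the methods a NEBNext kit. The annotation and the strand setting of the counting are not given in the sources used here. All count columns were matched to samples by their titles. Nothing in the labels states that the 2 libraries of a group came from separate cultures, so p-values measure the spread between these libraries, which may be technical.

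Counts were analysed in R 4.3.3 with edgeR 4.0.16: filterByExpr, TMM scaling, and the quasi-likelihood test with a model of group means fitted to all 8 libraries, with Benjamini-Hochberg adjustment over the 15154 genes tested. limma 3.58.1 was loaded by edgeR. DESeq2 1.42.0 was an alternative. The code was tested on simulated data with 200 genes changed. Of 50578 gene identifiers, 50354 (99.6%) were found in GENCODE M21, which gave positions on mm10 and the exon lengths for levels per kb. The 95% Poisson intervals are exact, and, as reads carried no molecular identifiers, they cover counting error alone.

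The members and gene lists were chosen with earlier results of these data known. Named from each list were up to 4 genes with the smallest p against MEFs and up to 3 with the smallest adjusted p among those called between compounds, and for each member the 2 genes with the most similar profile (log2 CPM, prior count 2). Hoxa5 was named by the last rule, and 1 gene that the rule named is not reported here. Alternatives were RLE size factors, no filter, a minimum of 10 counts in every library, a fit of only the groups compared, DESeq2, a replicate block and leaving out each library.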

Additional observations from a re-analysis of the deposited data

How the results depend on the processing

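Depth limits Cyp26a1 most, with 0 to 24 reads a library. Where 1 library was left out, its lone partner was assumed to vary like the other groups. The counts of all genes called ranged without 1 library from 3142 to 7996 (carbidopa against MEFs), 2841 to 3095 (LY-364947 against MEFs), 3433 to 4709 (CHIR-99021 against MEFs), 715 to 4632 (CHIR-99021 against carbidopa), 663 to 1200 (CHIR-99021 against LY-364947) and 2 to 3816 (LY-364947 against carbidopa), against 5717, 4694, 5878, 2227, 2143 and 2 with all libraries. Leaving out carbidopa replicate 2 gave 7996, 4632 and 3816. Of the members, 3 to 6 were then called for CHIR-99021 against carbidopa and 0 to 3 for LY-364947 against carbidopa. Of the other pathway genes, 6 to 28, 4 to 10 and 0 to 16 were called between CHIR-99021 and carbidopa, CHIR-99021 and LY-364947, and LY-364947 and carbidopa. Fitting only the groups compared called 1027, 3673 and 0 genes in these pairs, and 5 members for CHIR-99021 against LY-364947. With no filter, 22 pathway genes were called for CHIR-99021 against carbidopa, and 329 genes and 2 members for LY-364947 against carbidopa, where DESeq2 called 16 genes. The causes were not tested.

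Signs turned only at small uncalled differences. For Crabp2 against MEFs they were -0.0038 (RLE), -0.0045 (DESeq2) and -0.20 to 0.23 (1 library out) with carbidopa, and -0.0038, -0.0043 and -0.11 to 0.14 with LY-364947. Without 1 library, Rarg ran from -0.57 to 0.0018 (LY-364947 against MEFs) and from -0.15 to 0.32 (CHIR-99021 against carbidopa), and Crabp1 from -0.096 to 0.26 (CHIR-99021 against LY-364947). For LY-364947 against carbidopa, values without 1 library ran from -0.087 to 0.033 for Rarb, -0.67 to 0.019 for Cyp26a1, -0.11 to 0.038 for Cyp26b1 and -0.22 to 0.22 for Crabp2, which was 1.77e-04 by DESeq2. On total counts, 10 of 32 member levels moved beyond 1 SD.

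The replicate numbers 1 and 2 are only numbers in the labels, and the correlation of replicate differences between groups was -0.16 to 0.13. With the replicate block, 5473, 4424, 5722, 2010, 1973 and 2 genes, 7, 6, 8, 3, 3 and 0 members and 34, 33, 30, 15, 15 and 0 other pathway genes were called, in the order of comparisons above.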

Other observations

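A DR5 repeat was present in the promoter windows of 29 further genes, of which 15 were in the table and 6 were tested. This set was chosen after the values were seen. Blvrb had a log2 difference from MEFs of 0.88 with carbidopa (SE 0.25), and Syndig1 had differences of -1.12 for carbidopa (SE 0.19), -1.55 for LY-364947 (SE 0.20) and -2.26 for CHIR-99021 (SE 0.21). No test is given for this set. The median log2 change of the 6 was 0.08, -0.07 and 0.45 in that order.

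Within the anterior Hox genes, Hoxa5 had log2 differences from MEFs of 2.13 (SE 0.22), 1.92 (SE 0.23) and 2.67 (SE 0.22) with carbidopa, LY-364947 and CHIR-99021. It was named for its likeness to Cyp26a1, which had 0 reads in MEFs. A rise from MEFs was part of that choice, so no p is given for Hoxa5.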
